A study of Homo sapiens with 8 samples.

Results

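The 59 genes described here build the human DNA replication machinery or supply its deoxynucleotides, and they were taken by gene symbol from the deposited table with no measured value in the rule. All 59 were found among its 19411 genes, and all 59 passed the filter on low values, as did 11585 genes in all. The list was drawn up with earlier results of these data known, so its shares beside those of all genes are descriptive. Poly(A) RNA had been sequenced from HCT116, an established line from a human colorectal carcinoma, in which CRISPR interference (CRISPRi, a nuclease-dead Cas9 fused to a repressor that a guide RNA brings to a promoter) was set up in every group. There were 4 groups of 2 libraries each, per the sample labels; the series' own design text speaks instead of biological triplicates and a small RNA kit, and that conflict was not resolved. The line called circPRE8 with the guide against NORAD is written circPRE8 sgNORAD, the line called circPRE2 with that guide circPRE2 sgNORAD, the parental line with that guide parental sgNORAD, and the parental cells that received a control guide are written parental sgControl. The labels give no further account of circPRE8 or circPRE2, and do not say whether a line was 1 clone. NORAD is a long noncoding RNA that binds PUMILIO proteins, which repress the mRNAs they bind. The level of NORAD itself was not analysed here, so the repression by the guide was not checked. Nothing in the labels says that the 2 libraries of a group came from separate cultures, so p-values measure the spread between libraries, which may be technical.

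Replication starts when the origin recognition complex (ORC), with CDC6 and CDT1, loads the MCM2 to MCM7 helicase ring onto DNA in G1 phase. A kinase made of CDC7 and DBF4 then helps to activate the ring together with CDC45 and the GINS complex. DNA polymerases alpha, delta and epsilon copy the strands, and the clamp PCNA holds delta and epsilon on. Ribonucleotide reductase, thymidylate synthase and thymidine kinase feed the fork with deoxynucleotides. Many of these genes are transcribed at the G1 to S transition by E2F factors, and the summed mRNA of a culture also depends on how many of its cells are in S phase. In bulk RNA, fewer cells in a phase and less mRNA per cell cannot be told apart.

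The promoters of 5 members are shown because their genes differ in how they moved: CDC6, PCNA and RRM2 were lower in parental sgNORAD against parental sgControl, and MCM6 and POLE were called lower in circPRE8 sgNORAD against parental sgNORAD. Each is the 300 bases from 250 before to 50 after the RefSeq start (GRCh38.p14), 5′ to 3′ on the gene's strand; that start can lie inside the gene as GENCODE draws it. Capitals mark letters that match an E2F site (TTTGGCGC, TTTCCCGC, TTTGGCGG or TTTCGCGC) or the NF-Y box CCAAT, on either strand. The windows are chr17:40287629-40287928 (plus strand) for CDC6, chr20:5126573-5126872 (minus) for PCNA, chr2:10122489-10122788 (plus) for RRM2, chr2:135876394-135876693 (minus) for MCM6 and chr12:132687293-132687592 (minus) for POLE.
CDC6: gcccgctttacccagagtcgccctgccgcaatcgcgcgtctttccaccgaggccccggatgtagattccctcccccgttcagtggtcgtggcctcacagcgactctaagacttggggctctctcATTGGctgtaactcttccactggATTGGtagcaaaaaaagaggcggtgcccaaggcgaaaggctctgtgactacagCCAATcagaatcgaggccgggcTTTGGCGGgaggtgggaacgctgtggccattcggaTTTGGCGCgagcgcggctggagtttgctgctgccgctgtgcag
PCNA: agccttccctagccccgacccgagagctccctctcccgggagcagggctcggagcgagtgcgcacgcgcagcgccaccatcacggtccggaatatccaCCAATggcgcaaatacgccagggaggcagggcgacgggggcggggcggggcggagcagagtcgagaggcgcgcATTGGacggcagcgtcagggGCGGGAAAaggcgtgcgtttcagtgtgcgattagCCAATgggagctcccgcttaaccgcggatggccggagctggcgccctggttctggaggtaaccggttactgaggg
RRM2: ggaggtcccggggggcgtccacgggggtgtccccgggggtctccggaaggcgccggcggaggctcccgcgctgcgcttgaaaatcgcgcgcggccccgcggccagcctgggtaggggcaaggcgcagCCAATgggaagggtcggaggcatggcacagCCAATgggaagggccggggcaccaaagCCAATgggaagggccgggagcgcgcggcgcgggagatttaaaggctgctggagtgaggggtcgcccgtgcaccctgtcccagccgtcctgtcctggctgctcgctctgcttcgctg
MCM6: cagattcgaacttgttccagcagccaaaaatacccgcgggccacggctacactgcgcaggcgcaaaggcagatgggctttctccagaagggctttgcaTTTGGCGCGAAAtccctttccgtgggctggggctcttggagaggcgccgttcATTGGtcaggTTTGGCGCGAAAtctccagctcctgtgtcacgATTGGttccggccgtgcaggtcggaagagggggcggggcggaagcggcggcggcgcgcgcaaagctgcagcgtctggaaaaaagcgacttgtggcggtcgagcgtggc
POLE: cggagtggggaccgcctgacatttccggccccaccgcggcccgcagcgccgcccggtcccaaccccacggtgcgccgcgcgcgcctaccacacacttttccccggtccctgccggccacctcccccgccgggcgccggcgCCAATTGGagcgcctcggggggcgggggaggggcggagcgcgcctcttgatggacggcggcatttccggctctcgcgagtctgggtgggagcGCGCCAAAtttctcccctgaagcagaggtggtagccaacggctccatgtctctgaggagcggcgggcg
CDC6 has 2 E2F matches, PCNA has 1, RRM2 has none, MCM6 has 4 in 2 overlapping pairs (TTTGGCGC on one strand shares letters with TTTCGCGC on the other), and POLE has 1. In MCM6 the first bases of the pairs lie at -152 and -148, and at -90 and -86, counted from the start. RRM2 has 3 CCAAT boxes on the strand shown, at -123, -93 and -66, and in POLE a CCAAT overlaps its reverse complement ATTGG.

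Promoters were available for 51 of the 59 members; DNA2, GINS4, MCM4, MCM5, POLD3, RECQL4, RPA2 and RPA3 had none in the table used. One of the 4 E2F spellings was found in 24 of 51 member promoters (47.1%), against 4.54% of the 14743 promoters of genes in the deposited table. The NF-Y box was found in 29 (56.9%), against 36.3%. The CHR letters TTTGAA, tied to genes of G2 and mitosis, were found in 4 (7.84%), against 12% of the table's promoters. E2F letters were in 13 of 29 promoters (44.8%) of members lower in parental sgNORAD against parental sgControl and in 11 of 22 (50%) of members not called there. TK1, one of the members that differed most, has neither E2F nor NF-Y letters in its window, and ASF1B has 3 CCAAT boxes and no E2F letters. A single window was read per gene, so letters at another start or beyond the window were not looked for. A match is a description of letters and not a bound site.

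**Figure D1:**
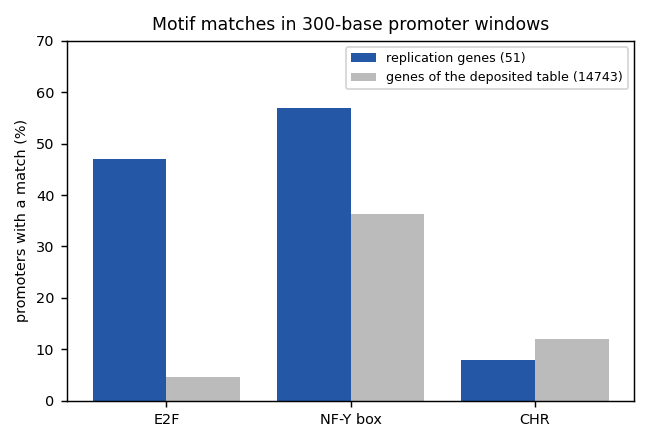
Share of promoter windows (%) with at least 1 match to E2F, NF-Y or CHR letters, for the 51 replication genes with a promoter (blue) and for the 14743 genes of the deposited table with one (grey). E2F letters stand in 47.1% against 4.54%, while the CHR bars are 7.84% and 12%.

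The scaling sizes recovered from the steps of low values were about 28390000 to 50280000 reads, with the first parental sgNORAD library the shallowest, and 1 read on 1 kb of gene was worth 0.0199 to 0.0352 RPKM (reads per kilobase of gene, scaled to library size). The 8 epithelial markers summed to 721.5 to 738.1 RPKM in circPRE8 sgNORAD, 639.4 to 643.4 in circPRE2 sgNORAD, 620.5 to 644.2 in parental sgNORAD and 696 to 727.8 in parental sgControl. LGR5, the intestinal stem cell marker among them, was at most 0.0233 RPKM in any library. The 7 epithelial markers tested did not move together in circPRE8 sgNORAD. Against parental sgNORAD 3 were called higher and 3 lower (limma, adjusted p under 0.05), beside 23.6% and 28.6% of all genes, with folds from 0.548 to 1.46. Against parental sgControl 3 were higher and 3 lower, beside 20.0% and 20.5% of all genes, with folds from 0.503 to 1.15. In circPRE2 sgNORAD against parental sgControl 0 were higher and 6 lower, beside 25.2% and 17.8% of all genes, with folds from 0.828 to 1.10. In parental sgNORAD against parental sgControl 0 were higher and 3 lower, beside 20.9% and 16.4%. In circPRE2 sgNORAD against parental sgNORAD 1 was higher and 1 lower, beside 10.9% and 7.91%. Blood markers summed to at most 0.0564 RPKM and endothelial markers to at most 0.1604. Fibroblast markers reached 6.137 RPKM and embryonic kidney markers 3.678, both in circPRE8 sgNORAD. The epithelial sum moved with some of the results below, and its part in them was not tested.

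Replication genes were well expressed. The mean over the 8 libraries was above 1 RPKM for 58 members, above 10 for 46 and above 100 for 3, namely PCNA, TK1 and MCM7. PCNA was highest, at a mean of 235.9 RPKM. RNASEH2A was lowest at 0.644 RPKM, and 30.8% of its exon length is shared with THSD8, so its value is uncertain. Over the members, replicates of a group differed by a root mean square of 0.077 on the log2 scale in circPRE8 sgNORAD and 0.066 in circPRE2 sgNORAD. It was 0.091 in parental sgNORAD and 0.082 in parental sgControl. Over all genes tested the values were 0.125, 0.110, 0.149 and 0.125, in the same order of groups.

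Parental sgNORAD was set against parental sgControl to ask what the NORAD guide changes in the parental line, a comparison called below by the words with the NORAD guide. Replication genes were lower with it: 31 of 59 members were called lower (limma, adjusted p under 0.05 over all genes), against 16.4% of all genes tested. None was called higher, against 20.9% of all genes (37.3% in either direction); 1 member, POLE3, was higher and 35 were lower at an unadjusted p under 0.05. The median log2 difference of the members was -0.15, against 0.02 for all genes, and single members ran between -0.43 and 0.10. Of the calls, 21 of 31 were made in all 8 fits that left out 1 library. By role, 5 of 9 licensing, 8 of 13 helicase, 1 of 2 kinase, 4 of 6 clamp and loader, 4 of 10 polymerase, 2 of 4 lagging strand, 4 of 6 nucleotide supply and 3 of 6 topology, fork and chromatin genes were lower. Of the 3 subunits of RPA, the single-strand binding complex, none was called and none had an unadjusted p under 0.05.

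Under the same guide, circPRE2 sgNORAD was then compared with parental sgNORAD. In it 11 members were called lower and 1, TK1, higher, against 7.91% and 10.9% of all genes (18.8% in either direction), and the median log2 difference was -0.10 (all genes 0.01). The lower ones were ORC2, MCM3, MCM4, MCM10, RFC3, RFC4, RFC5, POLD2, POLE2, POLE3 and TYMS. POLE3 alone kept its call in all 8 left-out fits, and the number called lower was 3 without circPRE2 sgNORAD replicate 1, 5 without circPRE2 sgNORAD replicate 2, 5 without parental sgNORAD replicate 1 and 18 without parental sgNORAD replicate 2. All 11 kept their sign. After scaling by median ratios 20 members were lower, with no filter 7 and with no trend 5.

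circPRE8 sgNORAD was set against the same parental sgNORAD libraries. The members split in it: 14 were higher and 11 lower, against 23.6% and 28.6% of all genes (52.2% in all), so the share higher was near the background and the share lower below it, and the median log2 difference was 0.01 (all genes -0.02). Members ranged between -0.31 and 0.44. The higher ones were ORC6, CDC6, MCM5, GINS2, GINS4, PCNA, RFC2, RPA2, FEN1, RRM2, TYMS, TK1, DTYMK and ASF1B. The lower ones were ORC2, ORC5, MCM4, MCM6, GINS1, RFC5, POLE, POLE2, DNA2, WDHD1 and CHAF1A. The calls of MCM5, RRM2, TYMS, TK1, DTYMK and ASF1B, and those of ORC2, ORC5, MCM6, RFC5 and POLE, were made in all 8 left-out fits. Without circPRE8 sgNORAD replicate 1 the number higher was 7, without circPRE8 sgNORAD replicate 2 the number lower was 6, and without parental sgNORAD replicate 1 it was 7. The parental sgNORAD libraries enter all 3 comparisons so far, on the upper side of the first and the lower side of the others, so the comparisons are not independent of each other. Values against parental sgControl and between the circPRE lines are given beside them.

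**Figure D2:**
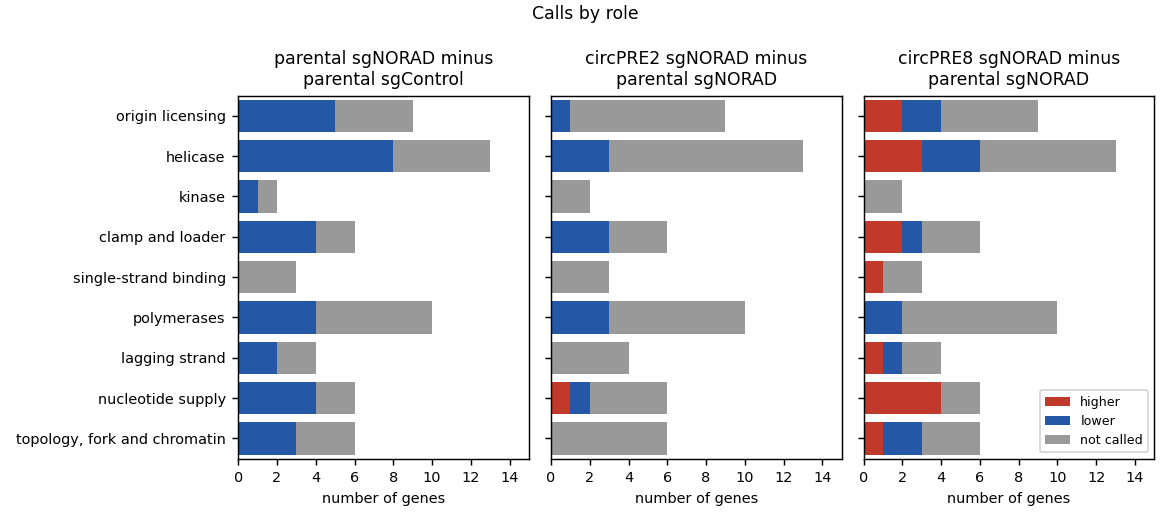
Number of member genes called higher (red), called lower (blue) or not called (grey) by limma in each role, for parental sgNORAD minus parental sgControl, circPRE2 sgNORAD minus parental sgNORAD and circPRE8 sgNORAD minus parental sgNORAD. The first panel has no red, and in the third the nucleotide supply genes are red for 4 of 6 while the polymerases have 2 blue of 10.

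**Figure D3:**
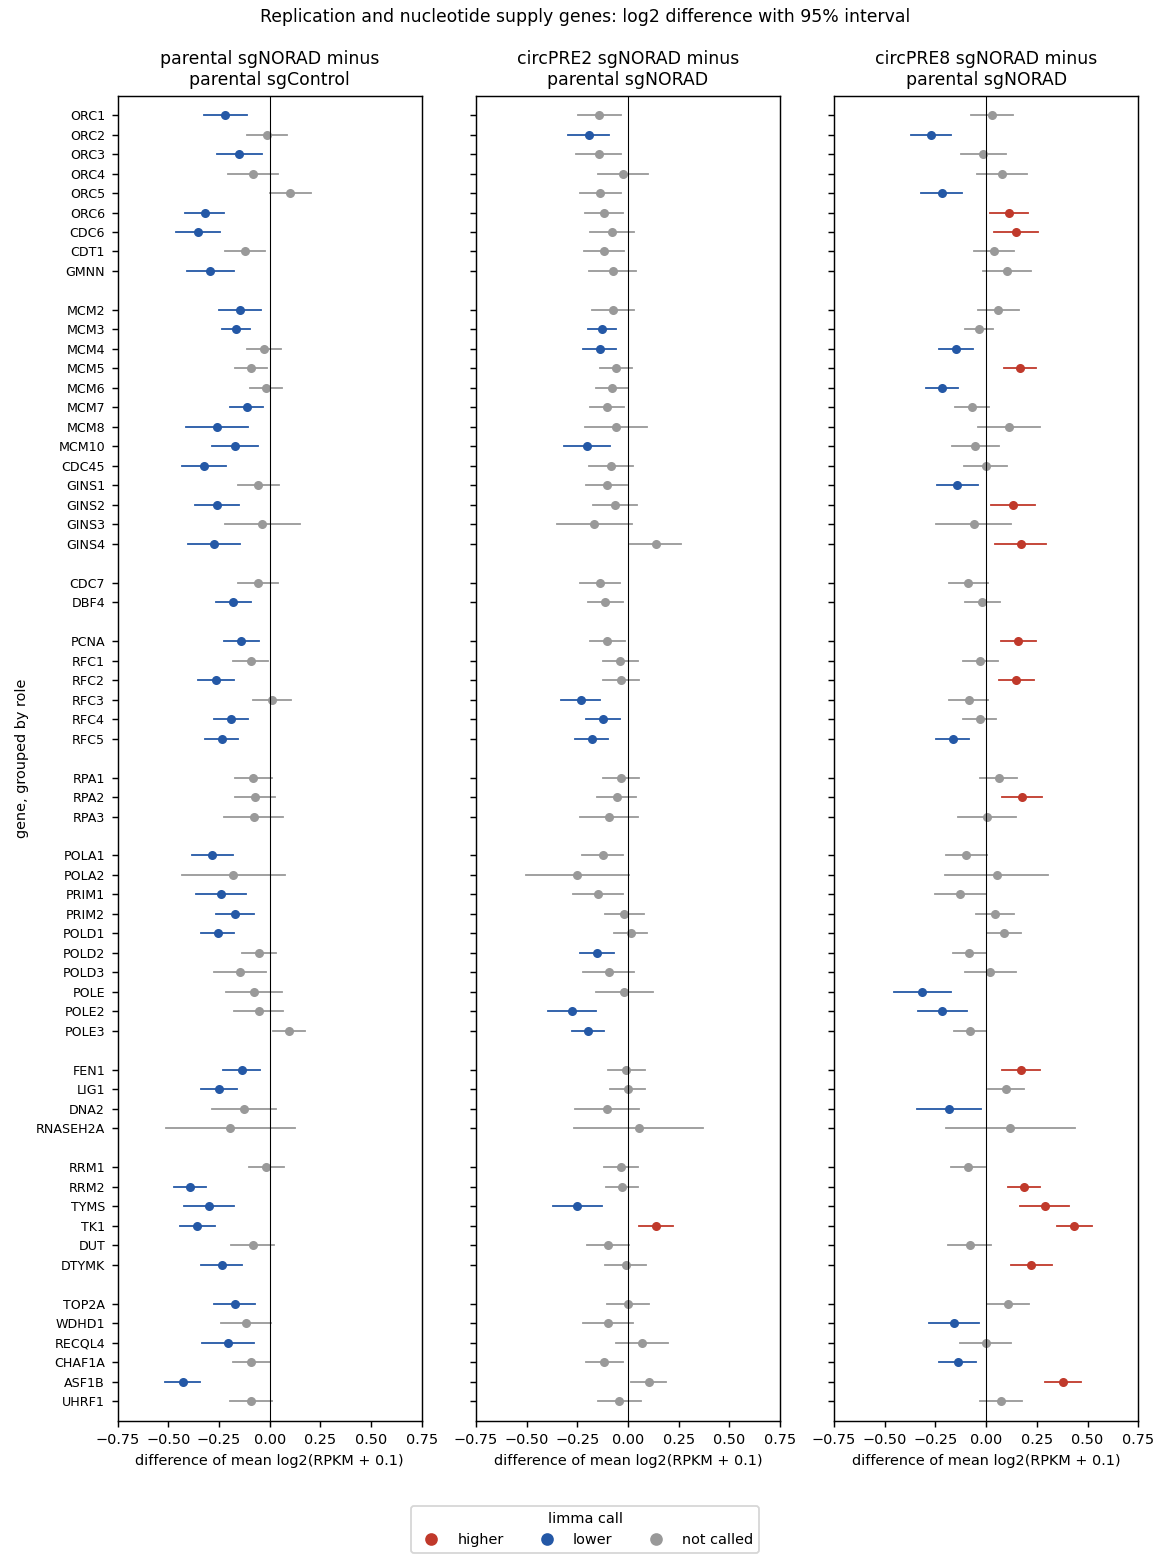
Difference of mean log2(RPKM + 0.1) with its 95% interval (horizontal axis) for each of the 59 members, grouped by role from licensing at the top to chromatin at the bottom, in the same 3 comparisons; colours show the limma call. Most points of the first panel lie left of 0, down to -0.43 for ASF1B, and the third panel spreads from -0.31 for POLE to 0.44 for TK1.

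Of all roles, nucleotide supply had the lowest median log2 difference with the NORAD guide (-0.27) and the highest in circPRE8 sgNORAD against parental sgNORAD (0.21). TK1 (thymidine kinase, which salvages thymidine, chr17:78174075-78187233) had 238 and 236 RPKM in circPRE8 sgNORAD, 190.3 and 195 in circPRE2 sgNORAD, 179.6 and 170.4 in parental sgNORAD, and 219 and 229 in parental sgControl. No groups overlapped: circPRE8 sgNORAD was highest, then parental sgControl, circPRE2 sgNORAD and parental sgNORAD. TK1 fell to 0.781-fold (95% interval 0.736 to 0.829, adjusted p = 4.58e-05) in parental sgNORAD against parental sgControl, and was 1.35-fold (95% interval 1.27 to 1.44, adjusted p = 4.06e-06) in circPRE8 sgNORAD against parental sgNORAD. In circPRE2 sgNORAD it was 1.10-fold (95% interval 1.04 to 1.17, adjusted p = 0.0306) against parental sgNORAD, a call that was lost without parental sgNORAD replicate 2 (log2 0.10), either circPRE2 sgNORAD library (0.15 and 0.12) or either circPRE8 sgNORAD library (0.14 each). It was also lost with no filter on low values (adjusted p = 0.0824), without limma's trend of the spread with level (0.0929) and with the 2 groups alone in the fit (0.0548). Set directly against parental sgControl, circPRE8 sgNORAD differed by 1.06-fold (95% interval 0.995 to 1.12, adjusted p = 0.131), which did not pass.

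TYMS (thymidylate synthase, chr18:657604-673578), which makes thymidylate from deoxyuridylate, had 44.5 and 44.0 RPKM in circPRE8 sgNORAD, 29.2 and 31.8 in circPRE2 sgNORAD, 37.5 and 34.9 in parental sgNORAD, and 42.4 and 47.0 in parental sgControl. It was lowest in both circPRE2 sgNORAD libraries and next in parental sgNORAD, with no overlap between those groups, while circPRE8 sgNORAD lay inside the range of parental sgControl. TYMS was 0.812-fold (95% interval 0.746 to 0.884, adjusted p = 0.00155) in parental sgNORAD against parental sgControl, and 0.841-fold (95% interval 0.773 to 0.916, adjusted p = 0.0105) in circPRE2 sgNORAD against parental sgNORAD. The second of these was lost without parental sgNORAD replicate 1 (log2 -0.20) or circPRE2 sgNORAD replicate 1 (-0.19), with no filter (adjusted p = 0.0545) and with no trend (0.0584). It was 1.22-fold (95% interval 1.12 to 1.33, adjusted p = 0.00116) in circPRE8 sgNORAD against parental sgNORAD. TYMS shares 39.15% of its exon length with ENOSF1 on the opposite strand, and counting is not stated to use strand. ENOSF1 was 0.793-fold (adjusted p = 0.00443) in circPRE8 sgNORAD against parental sgNORAD, and was not called in circPRE2 sgNORAD against parental sgNORAD (0.873-fold, adjusted p = 0.112) or with the NORAD guide (1.02-fold, adjusted p = 0.792).

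RRM2, the S-phase small subunit of ribonucleotide reductase, had 54.0 and 53.4 RPKM in circPRE8 sgNORAD, 45.6 and 46.8 in circPRE2 sgNORAD, 48.2 and 46.1 in parental sgNORAD, and 61.6 and 62.2 in parental sgControl. The sgControl libraries were highest and circPRE8 sgNORAD next, above circPRE2 sgNORAD and parental sgNORAD, which overlapped. RRM2 fell to 0.762-fold (95% interval 0.722 to 0.804, adjusted p = 1.17e-05) with the NORAD guide, was 1.14-fold (95% interval 1.08 to 1.20, adjusted p = 0.00100) in circPRE8 sgNORAD against parental sgNORAD, and was 0.868-fold (95% interval 0.822 to 0.916, adjusted p = 0.000938) in circPRE8 sgNORAD against parental sgControl. Of its exon length 20.2% is shared with AC007240.1 on the same strand. Its partner RRM1, the large subunit, was not called in any of the first 3 comparisons (0.989-fold, 0.976-fold and 0.939-fold, in the order given above). DTYMK, which phosphorylates thymidylate and was singled out after its values were seen, had 31.9 and 30.8 RPKM in circPRE8 sgNORAD, 25.6 and 27.7 in circPRE2 sgNORAD, 27.6 and 26.1 in parental sgNORAD, and 31.3 and 32.0 in parental sgControl. The circPRE8 sgNORAD and parental sgControl libraries overlapped, above the other 4. It was 0.848-fold (95% interval 0.791 to 0.909, adjusted p = 0.00197) with the NORAD guide and 1.17-fold (95% interval 1.09 to 1.25, adjusted p = 0.00170) in circPRE8 sgNORAD against parental sgNORAD. DUT, which removes dUTP, was not called in either (0.943-fold and 0.945-fold).

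Among the 36 tested genes of nucleotide synthesis outside the 59, 9 were higher and 8 lower with the NORAD guide, near the shares of all genes (20.9% and 16.4%). In circPRE2 sgNORAD against parental sgNORAD 2 were higher and 12 lower, against 10.9% and 7.91% of all genes, and in circPRE8 sgNORAD against parental sgNORAD 6 were higher and 20 lower, against 23.6% and 28.6%. Their medians were 0.05, -0.10 and -0.13 on the log2 scale, beside all-gene medians of 0.02, 0.01 and -0.02. The genes named from this list were chosen after their values were seen, some for an order of groups like that of the members and some for another. SHMT1, a cytosolic serine hydroxymethyltransferase, had 10.4 and 10.5 RPKM in circPRE8 sgNORAD, 9.16 and 9.11 in circPRE2 sgNORAD, 8.82 and 8.40 in parental sgNORAD, and 9.91 and 10.4 in parental sgControl. Every parental sgNORAD and circPRE2 sgNORAD library was below every circPRE8 sgNORAD and parental sgControl library. SHMT1 was 0.848-fold (adjusted p = 0.00204) with the NORAD guide and 1.21-fold (adjusted p = 0.000411) in circPRE8 sgNORAD against parental sgNORAD. SHMT2, its mitochondrial relative, was 0.888-fold (adjusted p = 0.00397) with the NORAD guide and 1.08-fold (adjusted p = 0.0282) in circPRE8 sgNORAD against parental sgNORAD. RRM2B, a small ribonucleotide reductase subunit induced by p53, had 27.2 and 25.4 RPKM in circPRE8 sgNORAD, 30.0 and 29.4 in circPRE2 sgNORAD, 26.5 and 26.8 in parental sgNORAD, and 20.0 and 20.7 in parental sgControl. It was lowest in parental sgControl, without overlap with any other group. RRM2B was 1.31-fold (adjusted p = 4.03e-05) with the NORAD guide, 1.11-fold (adjusted p = 0.0235) in circPRE2 sgNORAD against parental sgNORAD, and 0.987-fold (adjusted p = 0.732) in circPRE8 sgNORAD against parental sgNORAD. TK2, the mitochondrial thymidine kinase, had 2.50 and 2.60 RPKM in circPRE8 sgNORAD, 2.62 and 2.37 in circPRE2 sgNORAD, 2.29 and 2.32 in parental sgNORAD, and 1.52 and 1.70 in parental sgControl. Again the parental sgControl libraries were the lowest pair. TK2 was 1.41-fold (adjusted p = 0.000708) with the NORAD guide. CAD, which starts pyrimidine synthesis, had 18.8 and 19.0 RPKM in circPRE8 sgNORAD, 26.5 and 24.7 in circPRE2 sgNORAD, 29.5 and 26.9 in parental sgNORAD, and 24.0 and 21.8 in parental sgControl. Its 2 circPRE8 sgNORAD libraries were the lowest of the 8. CAD was 0.670-fold (adjusted p = 8.31e-06) there against parental sgNORAD, and IMPDH2, which commits purines to guanine nucleotides, was 0.751-fold (adjusted p = 1.75e-06); with the NORAD guide both were higher, CAD at 1.23-fold (adjusted p = 0.00175) and IMPDH2 at 1.24-fold (adjusted p = 4.24e-05).

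**Figure D4:**
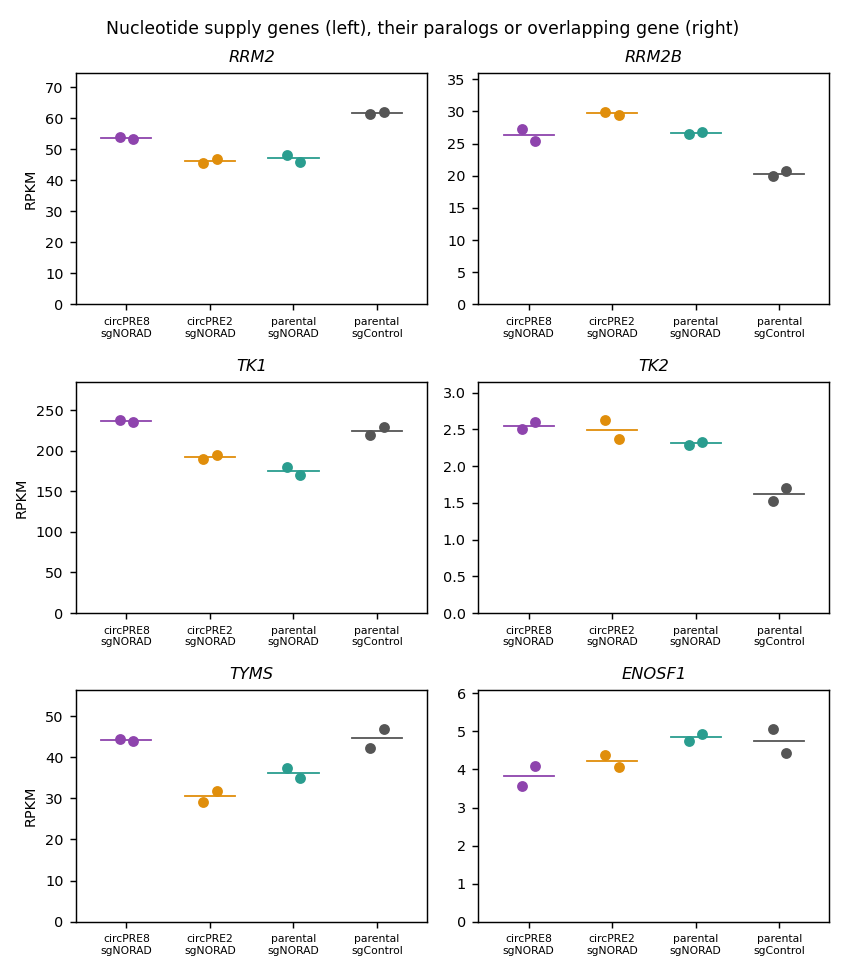
RPKM of RRM2, TK1 and TYMS (left) and of RRM2B, TK2 and ENOSF1 (right) in each library (points) with the group mean (line), each axis from 0. RRM2 and TK1 are high in parental sgControl where RRM2B and TK2 are lowest, and TYMS lies near 44 RPKM in circPRE8 sgNORAD, where ENOSF1 is at 3.56 and 4.10 RPKM.

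Origin licensing genes fell with the NORAD guide for 5 of 9 members. CDC6, the ATPase that loads the MCM ring, had 26.9 and 24.7 RPKM in circPRE8 sgNORAD, 21.7 and 22.4 in circPRE2 sgNORAD, 24.2 and 22.3 in parental sgNORAD, and 29.7 and 29.8 in parental sgControl. The parental sgControl pair was above all other libraries, and circPRE8 sgNORAD was above parental sgNORAD and circPRE2 sgNORAD, which overlapped. CDC6 fell to 0.782-fold (95% interval 0.725 to 0.843, adjusted p = 0.000246) with the NORAD guide and was 1.11-fold (95% interval 1.03 to 1.19, adjusted p = 0.0262) in circPRE8 sgNORAD against parental sgNORAD, the second call being lost without parental sgNORAD replicate 2 (log2 0.09) or circPRE8 sgNORAD replicate 1 (0.09), with no filter (adjusted p = 0.0651) and with no trend (0.0740). In circPRE8 sgNORAD it was 0.866-fold (95% interval 0.804 to 0.934, adjusted p = 0.00636) against parental sgControl, a call lost without circPRE8 sgNORAD replicate 2 (log2 -0.15). ORC6, the smallest ORC subunit, had 11.8 and 11.5 RPKM in circPRE8 sgNORAD, 9.81 and 10.0 in circPRE2 sgNORAD, 11.0 and 10.5 in parental sgNORAD, and 13.3 and 13.6 in parental sgControl. No groups overlapped, and circPRE2 sgNORAD was the lowest pair. ORC6 fell to 0.800-fold (95% interval 0.750 to 0.854, adjusted p = 0.000177) with the NORAD guide; its rise in circPRE8 sgNORAD against parental sgNORAD, 1.08-fold (95% interval 1.01 to 1.15, adjusted p = 0.0476), was lost in all left-out fits but the one without parental sgNORAD replicate 1 (log2 0.08 to 0.14 over the 8 fits), and also with the replicate number in the fit (adjusted p = 0.0515), with no trend (0.0667) and with the 2 groups alone in the fit (0.101).

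ORC2 and ORC5, also subunits of the origin recognition complex, behaved otherwise. ORC2 had 8.66 and 8.22 RPKM in circPRE8 sgNORAD, 8.76 and 9.08 in circPRE2 sgNORAD, 10.2 and 10.3 in parental sgNORAD, and 10.3 and 10.3 in parental sgControl. The parental groups lay close together, above both circPRE lines, and circPRE8 sgNORAD was the lowest. ORC2 was 0.828-fold (95% interval 0.773 to 0.886, adjusted p = 0.000398) in circPRE8 sgNORAD and 0.874-fold (95% interval 0.816 to 0.936, adjusted p = 0.0128) in circPRE2 sgNORAD, both against parental sgNORAD, the second being lost without circPRE2 sgNORAD replicate 1 (log2 -0.17). ORC5 had 8.13 and 7.89 RPKM in circPRE8 sgNORAD, 8.56 and 8.41 in circPRE2 sgNORAD, 9.17 and 9.50 in parental sgNORAD, and 8.89 and 8.51 in parental sgControl, highest in parental sgNORAD and lowest in circPRE8 sgNORAD. It was 0.859-fold (95% interval 0.801 to 0.922, adjusted p = 0.00207) in circPRE8 sgNORAD against parental sgNORAD, and against parental sgControl the difference of circPRE8 sgNORAD, 0.922-fold, did not pass. Of the other licensing genes, ORC1 (0.859-fold), ORC3 (0.901-fold) and the CDT1 inhibitor GMNN (0.816-fold) were lower with the NORAD guide, the call of ORC3 being lost without either parental sgControl library or parental sgNORAD replicate 2 (log2 between -0.22 and -0.08 over the 8 fits). CDT1 (0.920-fold) and ORC4 (0.943-fold) did not pass.

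The MCM2 to MCM7 ring holds 1 copy of each subunit, yet the mRNA levels per length were unequal: MCM5 was lowest and MCM7 highest in each group. MCM7 stood above MCM5 by 3.01 times in circPRE8 sgNORAD, 3.44 in circPRE2 sgNORAD, 3.55 in parental sgNORAD and 3.60 in parental sgControl (group means of RPKM), and MCM7 shares 8.94% of its exon length with AP4M1 on the opposite strand. The ring's genes did not move as 1 unit. MCM5, singled out after its values were seen (chr22:35400063-35425430), had 37.1 and 36.0 RPKM in circPRE8 sgNORAD, 30.7 and 31.8 in circPRE2 sgNORAD, 32.7 and 32.4 in parental sgNORAD, and 34.5 and 35.0 in parental sgControl. The circPRE8 sgNORAD libraries were the 2 highest and the others ran down through parental sgControl to circPRE2 sgNORAD. MCM6 (chr2:135839626-135876426) had 42.6 and 41.4 RPKM in circPRE8 sgNORAD, 46.2 and 46.6 in circPRE2 sgNORAD, 49.98 and 47.9 in parental sgNORAD, and 49.0 and 50.1 in parental sgControl. Here the circPRE8 sgNORAD libraries were the 2 lowest, while parental sgNORAD and parental sgControl overlapped. In circPRE8 sgNORAD against parental sgNORAD, MCM5 was 1.12-fold (95% interval 1.06 to 1.19, adjusted p = 0.00224) and MCM6 0.859-fold (95% interval 0.813 to 0.908, adjusted p = 0.000387), calls in opposite directions that were both made in all 8 left-out fits.

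MCM4 had 54.6 and 52.7 RPKM in circPRE8 sgNORAD, 53.4 and 54.5 in circPRE2 sgNORAD, 61.1 and 57.8 in parental sgNORAD, and 60.0 and 61.2 in parental sgControl. Both circPRE lines were below both parental groups and overlapped with each other. MCM4 was 0.902-fold (95% interval 0.851 to 0.956, adjusted p = 0.00655) in circPRE8 sgNORAD and 0.907-fold (95% interval 0.856 to 0.962, adjusted p = 0.0256) in circPRE2 sgNORAD, both against parental sgNORAD. Those calls were lost without parental sgNORAD replicate 1 (log2 -0.11 and -0.10), the first also without circPRE8 sgNORAD replicate 2 (-0.12) and the second without circPRE2 sgNORAD replicate 1 (-0.13) or 2 (-0.15), with no filter (adjusted p = 0.0557), with no trend (0.0872) and with the 2 groups alone in the fit (0.0501). With the NORAD guide MCM2 (0.903-fold), MCM3 (0.890-fold) and MCM7 (0.924-fold) were lower, whereas MCM4 (0.981-fold), MCM5 (0.937-fold) and MCM6 (0.988-fold) did not pass. MCM2 shares 22.7% of its exon length with the antisense gene AC023593.1. The calls of MCM2 and MCM7 were lost without parental sgControl replicate 2 or parental sgNORAD replicate 2, and that of MCM7 also without parental sgControl replicate 1 (over the 8 fits, log2 -0.20 to -0.09 for MCM2 and -0.15 to -0.08 for MCM7). MCM3 was also lower in circPRE2 sgNORAD against parental sgNORAD (0.916-fold), a call lost without parental sgNORAD replicate 1 or either circPRE2 sgNORAD library (log2 -0.14 to -0.12).

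Factors that turn the ring into an active helicase were lower with the NORAD guide where they passed. CDC45, which rides with MCM and GINS at the fork, had 12.9 and 13.9 RPKM in circPRE8 sgNORAD, 12.6 and 12.7 in circPRE2 sgNORAD, 12.9 and 13.9 in parental sgNORAD, and 16.7 and 17.0 in parental sgControl. The parental sgControl pair was the highest, and circPRE8 sgNORAD overlapped with parental sgNORAD, with circPRE2 sgNORAD just below. CDC45 fell to 0.798-fold (95% interval 0.741 to 0.860, adjusted p = 0.000400) with the NORAD guide and was 0.797-fold (95% interval 0.740 to 0.858, adjusted p = 0.000332) in circPRE8 sgNORAD against parental sgControl. GINS4 had 4.62 and 5.01 RPKM in circPRE8 sgNORAD, 4.57 and 4.83 in circPRE2 sgNORAD, 4.25 and 4.27 in parental sgNORAD, and 5.20 and 5.16 in parental sgControl. Parental sgNORAD was lowest and parental sgControl highest, with the circPRE lines between them. GINS4 was 0.827-fold (95% interval 0.757 to 0.903, adjusted p = 0.00342) with the NORAD guide and 1.12-fold (95% interval 1.03 to 1.23, adjusted p = 0.0287) in circPRE8 sgNORAD against parental sgNORAD, a call lost without either parental sgNORAD library (log2 0.17 each), without circPRE8 sgNORAD replicate 2 (0.11) and with the 2 groups alone in the fit (adjusted p = 0.0608). An antisense gene, AC009630.2, shares 21.2% of its exon length.

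GINS1 had 13.5 and 12.4 RPKM in circPRE8 sgNORAD, 13.1 and 13.5 in circPRE2 sgNORAD, 14.4 and 14.2 in parental sgNORAD, and 14.8 and 14.9 in parental sgControl, with circPRE8 sgNORAD and circPRE2 sgNORAD overlapping below both parental groups. Its call in circPRE8 sgNORAD against parental sgNORAD, 0.906-fold (95% interval 0.846 to 0.971, adjusted p = 0.0214), was lost without parental sgNORAD replicate 1 (log2 -0.13) or circPRE8 sgNORAD replicate 2 (-0.08). GINS2 was lower with the NORAD guide (0.835-fold) and higher in circPRE8 sgNORAD against parental sgNORAD (1.09-fold), the second being lost without either parental sgControl library, parental sgNORAD replicate 2 or circPRE8 sgNORAD replicate 1 (log2 0.07 to 0.19 over the 8 fits). GINS3 did not pass in either (0.975-fold and 0.958-fold). MCM10, which helps to activate the helicase, had 14.3 and 13.5 RPKM in circPRE8 sgNORAD, 12.3 and 12.7 in circPRE2 sgNORAD, 15.2 and 13.7 in parental sgNORAD, and 16.4 and 16.1 in parental sgControl. Parental sgControl was highest and circPRE2 sgNORAD lowest. MCM10 was 0.888-fold (95% interval 0.820 to 0.961, adjusted p = 0.0228) with the NORAD guide and 0.869-fold (95% interval 0.803 to 0.941, adjusted p = 0.0198) in circPRE2 sgNORAD against parental sgNORAD. The first call was lost without either parental sgControl library (log2 -0.15 and -0.19) or parental sgNORAD replicate 2 (-0.10), and the second without parental sgNORAD replicate 1 (-0.13) or either circPRE2 sgNORAD library (-0.18 and -0.23). Both were lost with no filter (adjusted p = 0.0591 and 0.0622) and no trend (0.0628 and 0.0676). MCM8, a relative outside the ring, was lower with the NORAD guide (0.834-fold), a call lost without parental sgControl replicate 1 (log2 between -0.34 and -0.18 over the 8 fits).

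DBF4, the regulatory subunit of the CDC7 kinase, had 12.3 and 12.2 RPKM in circPRE8 sgNORAD, 11.4 and 11.5 in circPRE2 sgNORAD, 12.6 and 12.2 in parental sgNORAD, and 14.1 and 14.0 in parental sgControl. Parental sgControl was the highest pair and circPRE2 sgNORAD the lowest. DBF4 fell to 0.883-fold (95% interval 0.831 to 0.937, adjusted p = 0.00422) with the NORAD guide, while CDC7 itself did not pass (0.961-fold). PCNA (chr20:5114953-5126626) had 257 and 251 RPKM in circPRE8 sgNORAD, 208 and 216 in circPRE2 sgNORAD, 228 and 226 in parental sgNORAD, and 243 and 258 in parental sgControl. circPRE8 sgNORAD overlapped with parental sgControl, above parental sgNORAD, and circPRE2 sgNORAD was lowest. PCNA was 0.907-fold (95% interval 0.855 to 0.963, adjusted p = 0.0160) with the NORAD guide and 1.12-fold (95% interval 1.05 to 1.19, adjusted p = 0.00531) in circPRE8 sgNORAD against parental sgNORAD. The first was lost without parental sgControl replicate 2 (log2 -0.10), without parental sgNORAD replicate 2 (-0.13), with no filter (adjusted p = 0.0502) and with no trend (0.0534), and the second without circPRE8 sgNORAD replicate 1 (0.14).

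The replication factor C subunits, which open the PCNA ring, split among themselves. RFC2 had 33.0 and 32.5 RPKM in circPRE8 sgNORAD, 27.9 and 29.7 in circPRE2 sgNORAD, 29.2 and 29.8 in parental sgNORAD, and 34.9 and 36.1 in parental sgControl. Parental sgControl was highest, then circPRE8 sgNORAD, with circPRE2 sgNORAD and parental sgNORAD overlapping below. RFC2 fell to 0.832-fold (95% interval 0.783 to 0.884, adjusted p = 0.000416) with the NORAD guide and was 1.11-fold (95% interval 1.04 to 1.18, adjusted p = 0.00845) in circPRE8 sgNORAD against parental sgNORAD, the second lost without circPRE8 sgNORAD replicate 1 (log2 0.14). RFC5 had 23.1 and 22.7 RPKM in circPRE8 sgNORAD, 22.8 and 22.5 in circPRE2 sgNORAD, 25.8 and 25.6 in parental sgNORAD, and 29.6 and 30.9 in parental sgControl. The circPRE lines overlapped, both below parental sgNORAD, which was below parental sgControl. RFC5 was 0.848-fold (95% interval 0.802 to 0.898, adjusted p = 0.000521) with the NORAD guide, 0.883-fold (95% interval 0.835 to 0.935, adjusted p = 0.00740) in circPRE2 sgNORAD and 0.893-fold (95% interval 0.844 to 0.944, adjusted p = 0.00313) in circPRE8 sgNORAD, the last 2 against parental sgNORAD; the circPRE2 sgNORAD call was lost without circPRE2 sgNORAD replicate 2 (log2 -0.17).

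RFC3 had 18.8 and 18.6 RPKM in circPRE8 sgNORAD, 16.5 and 17.3 in circPRE2 sgNORAD, 20.2 and 19.4 in parental sgNORAD, and 20.3 and 19.1 in parental sgControl, and circPRE2 sgNORAD was the lowest pair while the parental groups overlapped. Its call in circPRE2 sgNORAD against parental sgNORAD, 0.851-fold (95% interval 0.797 to 0.909, adjusted p = 0.00455), was lost without circPRE2 sgNORAD replicate 1 (log2 -0.20). RFC4 was lower with the NORAD guide (0.875-fold) and in circPRE2 sgNORAD against parental sgNORAD (0.919-fold), the second being lost in 6 of the 8 left-out fits, all but those without a circPRE8 sgNORAD library. RFC1 did not pass in either (0.937-fold and 0.974-fold). RPA2, the middle subunit of RPA, had 45.9 and 43.8 RPKM in circPRE8 sgNORAD, 37.7 and 38.7 in circPRE2 sgNORAD, 41.4 and 38.0 in parental sgNORAD, and 41.3 and 42.2 in parental sgControl. The circPRE8 sgNORAD pair was the highest, and parental sgNORAD overlapped with both parental sgControl and circPRE2 sgNORAD. RPA2 was 1.13-fold (95% interval 1.06 to 1.21, adjusted p = 0.00589) in circPRE8 sgNORAD against parental sgNORAD, a call lost without parental sgNORAD replicate 2 (log2 0.12) or circPRE8 sgNORAD replicate 1 (0.14). RPA1 (1.04-fold) and RPA3 (1.00-fold) did not pass there. Pseudogenes named after PCNA, RFC3, RFC5, RPA2, DBF4, FEN1, POLD2, DUT, RRM2 and TYMS stand in the annotation, and reads may be shared with them. Exon length was also shared with other genes for 27 members, 18 of them with a protein-coding one.

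Among the polymerases, the catalytic subunits of alpha and delta were lower with the NORAD guide and that of epsilon was not called. The log2 difference of the last, POLE, was unsteady there and ran from -0.18 to 0.03 over the 8 left-out fits. POLA1, the catalytic subunit of polymerase alpha, which starts each strand with primase, had 8.35 and 8.64 RPKM in circPRE8 sgNORAD, 8.36 and 8.31 in circPRE2 sgNORAD, 9.37 and 8.83 in parental sgNORAD, and 11.1 and 11.1 in parental sgControl. Parental sgControl lay above all other libraries. POLA1 fell to 0.822-fold (95% interval 0.766 to 0.881, adjusted p = 0.000669) with the NORAD guide and was 0.768-fold (95% interval 0.716 to 0.824, adjusted p = 7.54e-05) in circPRE8 sgNORAD against parental sgControl. POLD1, the catalytic subunit of the lagging strand polymerase delta, had 21.6 and 20.9 RPKM in circPRE8 sgNORAD, 20.3 and 20.1 in circPRE2 sgNORAD, 19.6 and 20.3 in parental sgNORAD, and 23.7 and 24.1 in parental sgControl. Again parental sgControl was the highest pair. POLD1 fell to 0.837-fold (95% interval 0.790 to 0.886, adjusted p = 0.000344), and 8.64% of its exon length is shared with AC020909.1. The primase genes PRIM1 (0.847-fold) and PRIM2 (0.887-fold) were lower as well, the call of PRIM2 being lost without parental sgControl replicate 2 (log2 between -0.18 and -0.17 over the 8 fits). POLA2 (0.883-fold), POLD2 (0.964-fold) and POLD3 (0.903-fold) did not pass. POLA2 had a mean of only 1.18 RPKM and shares 35.1% of its exon length with AP000944.2 on the same strand, so its value is uncertain. PRIM1 shares 14.85% with AC117378.1, also on the same strand.

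The subunits of polymerase epsilon, which copies the leading strand, did not move together. POLE, the catalytic subunit (chr12:132623753-132687365), had 9.65 and 9.86 RPKM in circPRE8 sgNORAD, 12.3 and 11.7 in circPRE2 sgNORAD, 12.5 and 11.8 in parental sgNORAD, and 13.8 and 11.9 in parental sgControl. The circPRE8 sgNORAD pair was below all other libraries, and the remaining groups overlapped. POLE was 0.804-fold (95% interval 0.731 to 0.886, adjusted p = 0.00152) in circPRE8 sgNORAD against parental sgNORAD, and 0.988-fold in circPRE2 sgNORAD against parental sgNORAD, which did not pass. POLE2, the second subunit, had 7.23 and 7.82 RPKM in circPRE8 sgNORAD, 7.41 and 7.01 in circPRE2 sgNORAD, 9.01 and 8.49 in parental sgNORAD, and 9.21 and 8.97 in parental sgControl. The circPRE lines overlapped, below both parental groups. POLE2 was 0.826-fold (95% interval 0.760 to 0.898, adjusted p = 0.00597) in circPRE2 sgNORAD and 0.861-fold (95% interval 0.792 to 0.935, adjusted p = 0.00606) in circPRE8 sgNORAD, both against parental sgNORAD; these were lost without circPRE2 sgNORAD replicate 2 (log2 -0.24, adjusted p = 0.05002) and without circPRE8 sgNORAD replicate 1 (-0.16). POLE3, a histone-fold subunit, had 38.9 and 37.2 RPKM in circPRE8 sgNORAD, 34.9 and 35.3 in circPRE2 sgNORAD, 40.7 and 39.8 in parental sgNORAD, and 37.6 and 37.6 in parental sgControl. Parental sgNORAD was the highest pair and circPRE2 sgNORAD the lowest. POLE3 was 0.873-fold (95% interval 0.827 to 0.922, adjusted p = 0.00415) in circPRE2 sgNORAD against parental sgNORAD, and 0.946-fold in circPRE8 sgNORAD against parental sgNORAD, which did not pass. Between the circPRE lines, POLE3 was 1.08-fold (adjusted p = 0.0233) and POLE 0.814-fold (adjusted p = 0.00298) in circPRE8 sgNORAD against circPRE2 sgNORAD. The POLE3 call was lost without either circPRE2 sgNORAD library or without circPRE8 sgNORAD replicate 1 (log2 0.08 to 0.15 over the 8 fits), and that of POLE was made in all 8.

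Of the lagging strand enzymes, LIG1, which seals Okazaki fragments, had 15.6 and 15.5 RPKM in circPRE8 sgNORAD, 14.3 and 14.7 in circPRE2 sgNORAD, 14.8 and 14.2 in parental sgNORAD, and 17.4 and 17.2 in parental sgControl. Parental sgControl was highest, circPRE8 sgNORAD next, and the other groups overlapped. LIG1 fell to 0.841-fold (95% interval 0.791 to 0.893, adjusted p = 0.000603) with the NORAD guide and was 0.900-fold (95% interval 0.847 to 0.956, adjusted p = 0.0106) in circPRE8 sgNORAD against parental sgControl. The second call was lost without parental sgControl replicate 1 or circPRE8 sgNORAD replicate 2 (log2 -0.16 to -0.14 over the 8 fits). FEN1, the flap nuclease, had 76.6 and 72.5 RPKM in circPRE8 sgNORAD, 64.8 and 66.8 in circPRE2 sgNORAD, 68.3 and 64.0 in parental sgNORAD, and 71.7 and 74.0 in parental sgControl. circPRE8 sgNORAD overlapped with parental sgControl, and circPRE2 sgNORAD with parental sgNORAD. FEN1 was 0.908-fold (95% interval 0.851 to 0.968, adjusted p = 0.0232) with the NORAD guide and 1.13-fold (95% interval 1.06 to 1.20, adjusted p = 0.00522) in circPRE8 sgNORAD against parental sgNORAD. The first was lost without parental sgControl replicate 2 (log2 -0.12), without parental sgNORAD replicate 2 (-0.09), with no filter (adjusted p = 0.0596) and with no trend (0.0775), and the second without circPRE8 sgNORAD replicate 1 (0.13). DNA2, a helicase and nuclease that trims long flaps, had 4.49 and 4.03 RPKM in circPRE8 sgNORAD, 4.32 and 4.69 in circPRE2 sgNORAD, 5.08 and 4.62 in parental sgNORAD, and 5.41 and 5.19 in parental sgControl. circPRE8 sgNORAD overlapped with circPRE2 sgNORAD, and parental sgControl was highest. Its call in circPRE8 sgNORAD against parental sgNORAD, 0.881-fold (95% interval 0.790 to 0.981, adjusted p = 0.0485), was lost in 6 of the 8 left-out fits (log2 between -0.26 and -0.11), with no filter (adjusted p = 0.105), with no trend (0.0767), with the 2 groups alone in the fit (0.0702), under both other scalings (0.066 and 0.0518) and with a pseudocount of 1 (0.05002). RNASEH2A, which cuts RNA from DNA, had 0.700 and 0.612 RPKM in circPRE8 sgNORAD, 0.611 and 0.633 in circPRE2 sgNORAD, 0.628 and 0.564 in parental sgNORAD, and 0.799 and 0.605 in parental sgControl, and all 4 groups overlapped. It was called in none of the comparisons, with an interval of 0.700 to 1.09 for the fold with the NORAD guide.

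ASF1B, a histone chaperone that hands new histones to the fork, had the lowest log2 difference of the 59 with the NORAD guide. It had 63.0 and 65.6 RPKM in circPRE8 sgNORAD, 51.7 and 54.4 in circPRE2 sgNORAD, 49.7 and 49.1 in parental sgNORAD, and 65.1 and 68.1 in parental sgControl. The circPRE8 sgNORAD and parental sgControl libraries overlapped, circPRE2 sgNORAD was lower, and parental sgNORAD was lowest. ASF1B (chr19:14119509-14136956) fell to 0.742-fold (95% interval 0.699 to 0.789, adjusted p = 1.44e-05) with the NORAD guide and was 1.30-fold (95% interval 1.22 to 1.38, adjusted p = 1.39e-05) in circPRE8 sgNORAD against parental sgNORAD. CHAF1A, the large subunit of the chromatin assembly factor that works with PCNA, had 25.0 and 23.7 RPKM in circPRE8 sgNORAD, 24.7 and 24.9 in circPRE2 sgNORAD, 27.7 and 26.1 in parental sgNORAD, and 28.4 and 28.9 in parental sgControl. It was lower in both circPRE lines than in the parental groups, with overlap between the circPRE lines. CHAF1A was 0.907-fold (95% interval 0.852 to 0.967, adjusted p = 0.0144) in circPRE8 sgNORAD against parental sgNORAD, lost without parental sgNORAD replicate 1 or circPRE8 sgNORAD replicate 2 (log2 -0.10 each). WDHD1, which ties polymerase alpha to the helicase, had 10.9 and 10.4 RPKM in circPRE8 sgNORAD, 11.2 and 11.0 in circPRE2 sgNORAD, 12.6 and 11.3 in parental sgNORAD, and 13.4 and 12.5 in parental sgControl. circPRE8 sgNORAD was the lowest pair, and the parental groups overlapped. Its call in circPRE8 sgNORAD against parental sgNORAD, 0.895-fold (95% interval 0.822 to 0.975, adjusted p = 0.0327), was lost without parental sgNORAD replicate 1 (-0.08) or circPRE8 sgNORAD replicate 2 (-0.13), and with no filter (adjusted p = 0.0759), no trend (0.0739) or the 2 groups alone in the fit (0.0507).

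RECQL4, a helicase that takes part in origin firing, had 49.1 and 50.1 RPKM in circPRE8 sgNORAD, 51.6 and 52.7 in circPRE2 sgNORAD, 45.9 and 53.7 in parental sgNORAD, and 58.2 and 56.4 in parental sgControl. Both parental sgControl libraries were above the rest, and the 2 parental sgNORAD libraries lay far apart. In circPRE8 sgNORAD against parental sgNORAD, RECQL4 was not called, and its sign depended on which of those libraries was kept. The log2 difference was -0.11 without parental sgNORAD replicate 1 and 0.11 without parental sgNORAD replicate 2. In circPRE2 sgNORAD against parental sgNORAD it was not called either and ran from -0.04 to 0.18 over the 8 left-out fits. RECQL4 was 0.867-fold (95% interval 0.794 to 0.947, adjusted p = 0.0161) with the NORAD guide, a call lost without parental sgControl replicate 1 (log2 -0.18), without parental sgNORAD replicate 1 (-0.09), with no filter (adjusted p = 0.0672) and with no trend (0.066). TOP2A, which untangles daughter strands, was lower with the NORAD guide (0.887-fold), a call lost without parental sgControl replicate 1 or parental sgNORAD replicate 2 (log2 between -0.24 and -0.10 over the 8 fits). UHRF1, which brings DNA methylation to new strands, did not pass (0.938-fold).

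**Figure D5:**
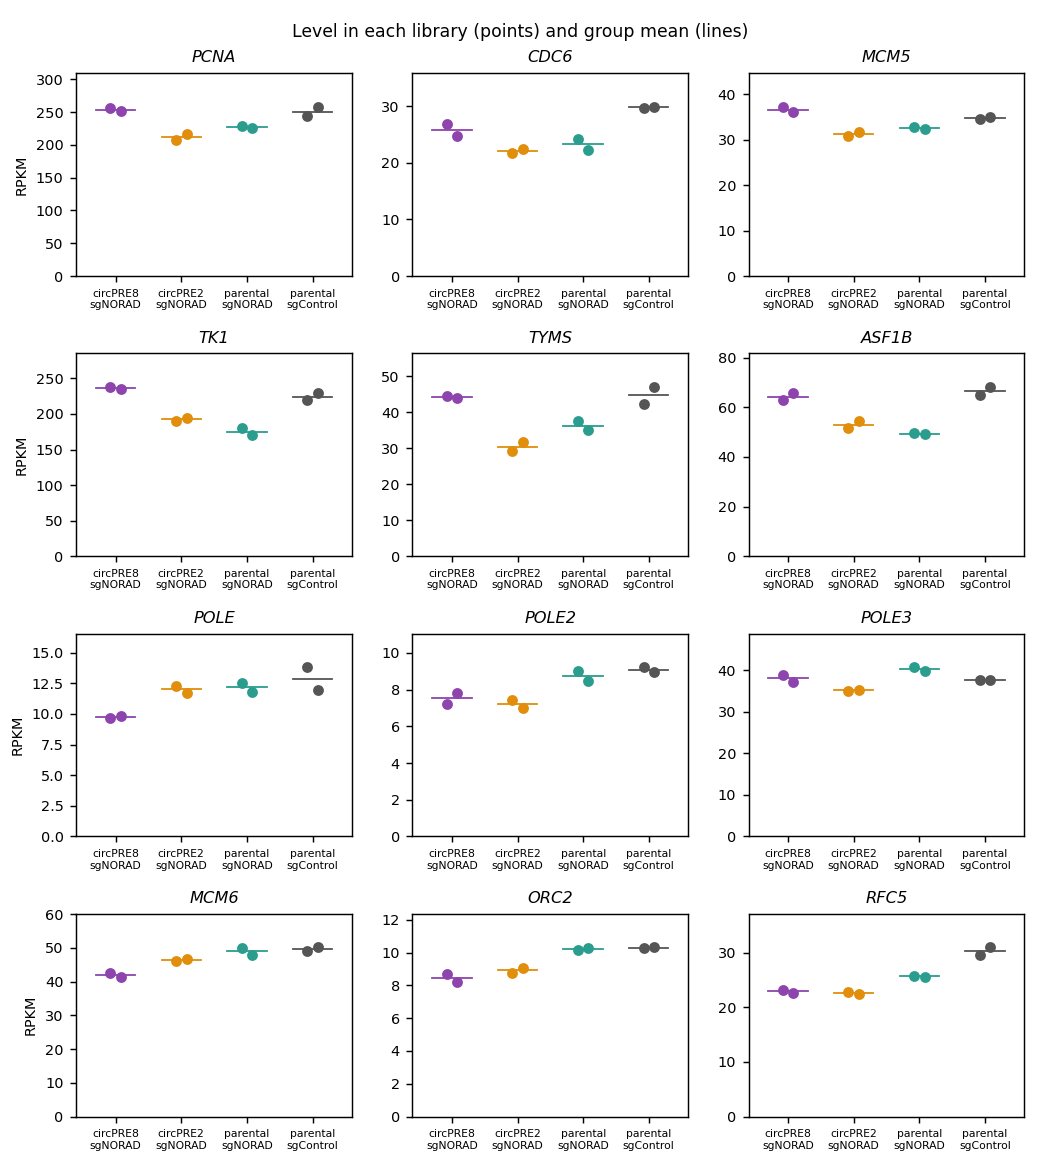
RPKM of 12 members in each library (points) with the group mean (line), each axis from 0, with groups ordered from circPRE8 sgNORAD to parental sgControl. TK1, TYMS and ASF1B are high in circPRE8 sgNORAD and parental sgControl, POLE and MCM6 are lowest in circPRE8 sgNORAD, and RFC5 is highest in parental sgControl.

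The circPRE lines were compared with each other, a difference that holds no parental library, although all 8 libraries set the spread it was tested against. In circPRE8 sgNORAD against circPRE2 sgNORAD, 21 members were higher and 2 lower, against 18.0% and 25.7% of all genes (43.6% in all). Of all genes called, 41.2% were higher, or 51.8% after scaling by median ratios. The median log2 difference of the members was 0.10 (all genes -0.04), with a range of -0.30 to 0.54. MCM6 was 0.906-fold (95% interval 0.858 to 0.957, adjusted p = 0.00813) and POLE 0.814-fold (95% interval 0.740 to 0.896, adjusted p = 0.00298), of which MCM6 lost its call without circPRE8 sgNORAD replicate 2 (log2 -0.12). TYMS rose most among the 59, to 1.45-fold (95% interval 1.33 to 1.58, adjusted p = 2.33e-05). TK1 was 1.23-fold (95% interval 1.16 to 1.30, adjusted p = 0.000131) and ASF1B 1.21-fold (95% interval 1.14 to 1.29, adjusted p = 0.000245). ORC6, CDC6, MCM5, PCNA, RPA2, RRM2, TYMS, TK1, DTYMK and ASF1B kept their call in all 8 left-out fits. The number higher was 26 with the 2 groups alone in the fit, 26 without either parental sgNORAD library, 32 after scaling by median ratios, 11 without circPRE2 sgNORAD replicate 1 and 11 without circPRE8 sgNORAD replicate 1. The remaining higher members were ORC1, CDT1, GMNN, MCM2, MCM3, MCM10, GINS2, RFC2, RFC3, POLE3 and FEN1.

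Each circPRE line was also set against parental sgControl, libraries that the first comparison shares. No circPRE library had the control guide, so line and guide differ together here and their parts cannot be told apart. In circPRE2 sgNORAD against parental sgControl 50 members were lower and none higher, against 17.8% and 25.2% of all genes (43.0% in all); no member was higher and 54 were lower at an unadjusted p under 0.05. Of all genes called there, 58.6% were higher, or 47.5% after scaling by median ratios. The median of the members was -0.22 (all genes 0.03), and all 59 log2 differences were below 0, from -0.55 for TYMS to -0.04 for ORC5. In circPRE8 sgNORAD against parental sgControl 34 were lower and none higher, against 20.5% and 20.0% of all genes (40.5% in all); 1 member, RPA2, was higher and 36 were lower at an unadjusted p under 0.05. The median was -0.15 (all genes 0.00), with a range of -0.40 to 0.10. The number lower was 18 without circPRE8 sgNORAD replicate 2. RFC5 had the lowest value, 0.757-fold (95% interval 0.716 to 0.801, adjusted p = 1.10e-05). Those that did not pass there included TK1, TYMS (0.992-fold), ASF1B (0.966-fold), DTYMK (0.990-fold), PCNA (1.01-fold) and FEN1 (1.02-fold). The intervals of these folds were 0.911 to 1.08 for TYMS, 0.909 to 1.03 for ASF1B, 0.924 to 1.06 for DTYMK and 0.955 to 1.08 for PCNA, so small differences in either direction lie within them.

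Further replisome, origin and chromatin assembly genes, 33 of them outside the 59, were counted in the same fits. With the NORAD guide 1 was higher and 11 were lower, against 20.9% and 16.4% of all genes, with a median of -0.10 (all genes 0.02). In circPRE2 sgNORAD against parental sgNORAD the counts were 1 and 5, against 10.9% and 7.91% of all genes (median -0.09, all genes 0.01). The counts in circPRE8 sgNORAD against parental sgNORAD were 4 and 10, against 23.6% and 28.6% (median -0.04, all genes -0.02), so the share lower was near the background. The genes named from this list and the next were chosen after their values were seen. CLSPN, the claspin adaptor that carries the replication checkpoint signal, had 9.37 and 9.31 RPKM in circPRE8 sgNORAD, 7.86 and 8.17 in circPRE2 sgNORAD, 8.83 and 7.79 in parental sgNORAD, and 10.8 and 10.6 in parental sgControl. The parental sgControl pair was highest and circPRE8 sgNORAD next. CLSPN was 0.779-fold (adjusted p = 0.000571) with the NORAD guide and 1.13-fold (adjusted p = 0.0264) in circPRE8 sgNORAD against parental sgNORAD. TOPBP1, which helps CDC45 onto the ring, was 0.794-fold (adjusted p = 6.19e-05) in circPRE8 sgNORAD against parental sgNORAD. MCMBP, which binds MCM subunits, was 0.862-fold (adjusted p = 0.00253) with the NORAD guide and 0.860-fold (adjusted p = 0.00581) in circPRE2 sgNORAD against parental sgNORAD.

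Of 32 G1 to S regulators, 4 were higher and 13 lower with the NORAD guide (median -0.11, all genes 0.02), against 20.9% and 16.4% of all genes. The counts were 3 and 7 in circPRE2 sgNORAD against parental sgNORAD (median -0.06, all genes 0.01), against 10.9% and 7.91% of all genes. They were 11 and 9 in circPRE8 sgNORAD against parental sgNORAD (median 0.05, all genes -0.02), against 23.6% and 28.6%, so the share lower was near the background there too. E2F1, a factor that can activate replication genes, had 18.0 and 18.2 RPKM in circPRE8 sgNORAD, 17.3 and 18.0 in circPRE2 sgNORAD, 18.2 and 17.4 in parental sgNORAD, and 20.9 and 19.6 in parental sgControl. The 3 groups with the NORAD guide overlapped, below parental sgControl. E2F1 was 0.881-fold (adjusted p = 0.00741) with the NORAD guide. CDKN1A, the p21 inhibitor of S-phase kinases, had 149.9 and 144 RPKM in circPRE8 sgNORAD, 145 and 147 in circPRE2 sgNORAD, 149.9 and 148 in parental sgNORAD, and 84.4 and 91.8 in parental sgControl. The 3 groups with the NORAD guide lay close together, all above parental sgControl. CDKN1A was 1.69-fold (adjusted p = 4.46e-07) with the NORAD guide and was not called in circPRE8 sgNORAD against parental sgNORAD (0.988-fold). CCNA2, the S-phase cyclin A, had 55.3 and 51.4 RPKM in circPRE8 sgNORAD, 41.7 and 42.7 in circPRE2 sgNORAD, 48.4 and 46.5 in parental sgNORAD, and 57.1 and 58.8 in parental sgControl. It was lowest in circPRE2 sgNORAD and highest in parental sgControl, without overlap between any 2 groups. CCNA2 was 0.819-fold (adjusted p = 0.000344) with the NORAD guide and 1.12-fold (adjusted p = 0.00579) in circPRE8 sgNORAD against parental sgNORAD. The part of cell cycle phase in the changes of the 59 was not tested.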

How the data were processed

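Poly(A) RNA of 8 HCT116 libraries was sequenced as paired reads, per the labels' protocols. The submitters' processing notes name STAR, featureCounts 1.6.0, edgeR 3.24.0 and hg38, with no roles given. The deposited table holds RPKM values from the authors, although it is titled as counts; depth was recovered from the steps of low values. Whether counting used strand is not given in the sources used here, so overlapping and antisense genes are uncertain.

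Values were taken as log2(RPKM + 0.1) for 11585 genes, those that reached 0.5 RPKM in 2 or more libraries. Folds are on that scale and understate changes of low genes. limma 3.58.1 in R 4.3.3, with a trend, fitted all 8 libraries with no covariate, and p-values were adjusted by Benjamini-Hochberg over all genes tested in each of 6 comparisons, with a threshold of 0.05. The fit was tested on simulated data, but the outcome is not given here and bears on none of the calls. The members and lists were chosen with earlier results of these data known. Library values are given, in each role, for up to 2 called members of largest change in each of the first 3 comparisons, for members called against the majority, for PCNA and for the members of highest and lowest mean. Those of MCM5 and DTYMK were added outside this rule, after their values were seen. Coordinates and overlaps are from GENCODE 29 (hg38). Alternatives covered the pseudocount, filter, scaling, trend, groups in the fit, a replicate block and each library left out. In comparisons without the left-out library's group, the log2 differences stayed the same and only the spread and the adjusted p-values changed.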

Additional observations from a re-analysis of the deposited data

How the results depend on the processing

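The members chosen for library values by the rule hold 49 calls in the first 3 comparisons, a part of the calls of all 59. MCM5 and DTYMK, added after their values were seen, are not among them. None of the 49 reversed under any alternative run, but many alternatives could not reverse a call. With no filter, no trend, the 2 groups alone or the replicate block, the log2 difference was the same as in the main fit. The same held where the left-out library was outside the comparison. Only the spread and the adjusted p-value could move there. Over 833 alternative values, 742 kept their side of the threshold and 91 lost it. The 31 lower with the NORAD guide became 24 with no filter, 23 with no trend and 37 under both other scalings. Leaving out 1 of the libraries compared put the median log2 difference of the members there between -0.19 and -0.09. The 50 lower in circPRE2 sgNORAD against parental sgControl became 45 with no filter, 43 with no trend and 53 after scaling by median ratios. Their left-out medians ran from -0.24 to -0.20. In circPRE2 sgNORAD against parental sgNORAD, with 11 lower and 1 higher, there were 7 lower and 0 higher with no filter, 5 lower and 0 higher with no trend, 20 lower after scaling by median ratios, and 0 higher with the 2 groups alone in the fit. In circPRE8 sgNORAD against circPRE2 sgNORAD 32 members were higher after that scaling, against 21. In circPRE8 sgNORAD against parental sgControl 1 member, RPA2, was higher with the 2 groups alone, against 0. The cause was not tested. Leaving out 1 library gave 3 to 18 lower and 0 to 1 higher in circPRE2 sgNORAD against parental sgNORAD. It gave 6 to 13 lower and 7 to 15 higher in circPRE8 sgNORAD against parental sgNORAD. In circPRE8 sgNORAD against parental sgControl the ranges were 18 to 35 lower and 0 to 1 higher, and against circPRE2 sgNORAD 1 to 2 lower and 11 to 26 higher. A lone library of a group was then assumed to vary like the other groups.

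With the replicate number as a block, 31 members were lower with the NORAD guide, 12 lower and 1 higher in circPRE2 sgNORAD and 13 higher and 12 lower in circPRE8 sgNORAD, the last 2 against parental sgNORAD. Against parental sgControl 49 were lower in circPRE2 sgNORAD and 34 in circPRE8 sgNORAD, and between the circPRE lines 24 were higher and 2 lower in circPRE8 sgNORAD. The difference between the 2 libraries of a group, taken in order of their number, correlated between groups at -0.17 to 0.21 over 11585 genes. The numbers were read as names only, and whether they mark a shared batch was not tested.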
